A study of Mus musculus with 7 samples.

Results

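The Ms4a genes described here were Ms4a4b, Ms4a4c, Ms4a4d, Ms4a6b, Ms4a6c, Ms4a6d and Ms4a7, and they were chosen by symbol. Every probe set that the platform annotation ties to 1 gene symbol, and to one of these symbols, was taken. That gave 7 genes with 14 probe sets, of 18193 genes and 45101 probe sets on the array. The samples were macrophages sorted from mouse brain by GFP (green fluorescent protein) and F4/80, a surface protein of mouse macrophages. The first group was 3 preparations from the normal brain of C57/Bl6 mice 8 weeks old. The second was 4 preparations from tumours of GL261, a mouse glioma cell line that had been injected into the brain of C57/Bl6 mice and had grown for 21 days. The tumour-bearing mice carried transplanted GFP bone marrow, so GFP in them marks cells that came from the marrow. Whether the normal brain mice carried the same marrow is not given in the sources used here, so the sort may not have taken the same kind of macrophage in both groups. Brains were digested with papain in both groups, and the labels do not say whether arrays came from separate mice, so all p-values measure only the spread between these arrays.

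MS4A proteins are small membrane proteins that cross the membrane several times and sit beside other receptors at the cell surface, where they are known to influence signalling and uptake. The family's best known member is CD20 (Ms4a1) of B cells, and its other members divide up the blood lineages. The Ms4a6 genes and Ms4a7 are mainly genes of monocytes and macrophages. In mouse brain, Ms4a7 is known from border-associated macrophages and macrophages recruited from blood more than from parenchymal microglia, while Ms4a4b is best known from T and NK cells.

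In the RefSeq annotation of GRCm38.p6 the family forms one cluster on chromosome 19, with 21 Ms4a genes among 22 protein-coding genes. The 7 genes lie in one stretch of it, in the order Ms4a7, Ms4a4c, Ms4a4b, Ms4a6c, Ms4a6b, Ms4a4d and Ms4a6d, with Ms4a4a and the predicted gene Gm8369 between them. RefSeq promoter windows of 250 bases before the gene start were held for 6 of the 7 genes, with 2 windows for Ms4a7 and none for Ms4a6d. Local alignment of these windows picked out 2 pairs of neighbours. Ms4a6c and Ms4a6b matched at 151 of 181 aligned columns (83.4%), and Ms4a4c and Ms4a4b at 181 of 247 (73.3%). Every other pair of genes matched over at most 99 columns. The aligned stretches of the Ms4a6 pair are shown because the stronger probe sets of these 2 genes followed each other over the arrays. This did not hold for their second probe sets, as described further on. Those of the Ms4a4 pair are shown because the signals of that pair did not follow each other. All are on the plus strand of GRCm38.p6, at chr19:11469193-11469366 for Ms4a6c, chr19:11518311-11518488 for Ms4a6b, chr19:11407425-11407660 for Ms4a4c and chr19:11443318-11443553 for Ms4a4b. Capitals mark matches to the motifs described after them.
Ms4a6c: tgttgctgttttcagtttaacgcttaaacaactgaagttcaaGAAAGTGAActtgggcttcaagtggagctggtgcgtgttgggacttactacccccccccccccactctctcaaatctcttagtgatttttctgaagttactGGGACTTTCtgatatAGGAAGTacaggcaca
Ms4a6b: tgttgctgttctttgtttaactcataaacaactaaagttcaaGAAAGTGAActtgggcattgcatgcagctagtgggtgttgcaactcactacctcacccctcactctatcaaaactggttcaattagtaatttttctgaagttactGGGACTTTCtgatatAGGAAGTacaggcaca
Ms4a4c: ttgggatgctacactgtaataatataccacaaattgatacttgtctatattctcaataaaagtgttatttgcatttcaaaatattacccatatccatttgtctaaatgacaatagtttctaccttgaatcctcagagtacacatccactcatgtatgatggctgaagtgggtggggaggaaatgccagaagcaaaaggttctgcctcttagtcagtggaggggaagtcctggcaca
Ms4a4b: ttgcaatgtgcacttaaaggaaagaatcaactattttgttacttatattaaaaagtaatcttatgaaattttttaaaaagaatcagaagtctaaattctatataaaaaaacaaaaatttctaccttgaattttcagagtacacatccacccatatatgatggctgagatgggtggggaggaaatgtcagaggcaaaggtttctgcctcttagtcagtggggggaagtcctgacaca

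Each motif was searched on both strands in the 250 bases of each window, and the motifs were chosen with the sequences in view. AGGAAGT, the core bound by ETS factors such as the macrophage factor PU.1, was found in Ms4a6b and Ms4a6c and in 7.69% of the 32851 windows of all genes. GAAANNGAA, the core of interferon-response elements, was found in Ms4a6b, Ms4a6c and Ms4a7 and in 7.13% of all windows. GGGACTTTC, a part of kappa-B sites, was found in Ms4a6b and Ms4a6c and in 0.289% of all windows. In the printed stretches the 3 matches of Ms4a6c and the 3 of Ms4a6b stand in the same order and do not overlap. Ms4a6b has a further AGGAAGT match on the minus strand outside the printed stretch. The Ms4a4b, Ms4a4c and Ms4a4d windows held none of these letters. A match describes the letters only.

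The values are MAS5 signals, which are linear intensities of probe sets. Values were compared as log2(signal + 6), which shrinks differences of dim probe sets, and the signals of different probe sets are not comparable with each other. The median signal of the arrays was 49.5 to 73.0 in normal brain and 50.9 to 65.0 in GL261. The 95th percentile of 27 Bacillus control probe sets on each array, at a signal of 12.4 to 20.1, was taken as background. The 18 spiked hybridisation control probe sets, which carry no RNA of the sample, averaged log2 12.40 to 13.20 in normal brain and 12.20 to 12.90 in GL261. Gapdh was read near both ends of its transcript as a check of RNA quality. It gave a 3'/5' ratio of 2.39 to 2.43 in normal brain and 1.64 to 1.89 in GL261. Its two-sided exact permutation p was 0.0286 (n = 3 and 4), the smallest that test can give. The same ratio of actin overlapped, at 1.43 to 1.64 in normal brain and 1.36 to 1.52 in GL261 (two-sided exact permutation p = 0.143). The part of RNA quality in the results was not tested. Of 14 pan-macrophage and leukocyte genes all 14 were tested, 1 rose (the engulfment receptor Mertk) and 0 fell. Mertk was no longer called without normal brain replicate 2 or any of GL261 replicates 1, 3 and 4. The same held with median centring of the arrays and without a variance trend. None of the 14 was at background on every array. The summed signal of the 14 was 112451 to 142088 in normal brain and 98199 to 140390 in GL261. Here and below, such a sum of linear signals mostly follows the brightest probe sets of a list and is not a level of cells. The list also holds genes of other leukocytes, and the purity of the sort was not tested. Adgre1, which encodes F4/80, had signals of 8547, 7395 and 8758 in normal brain and 6716, 6094, 6240 and 5965 in GL261, lower on every tumour array but not called (-0.39, limma adjusted p = 0.0814). Genes of other cell types were measured too. Of neutrophil genes 6 of 8 tested fell, and their summed signal was 39724 to 51115 in normal brain and 16476 to 23022 in GL261. The brightest of them were S100a8 and S100a9, at log2 14.04 and 14.45 in normal brain and 13.03 and 13.48 in GL261. Of endothelial genes 3 of 8 fell, a count that was 5 without GL261 replicate 2, 1 with the filter at the 60th percentile and 0 without a variance trend. Of oligodendrocyte precursor genes 4 of 5 rose, but 2 when normal brain 1 and GL261 2 were left out and 0 with the stricter filter.

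The comparison of GL261 with normal brain asked how macrophages of this glioma differ in expression from those of normal brain, and none of the 7 Ms4a genes passed the test. Of the 7 genes, 0 were called in either direction by limma at an adjusted p under 0.05, against 10.1% of the 12125 genes tested (5.92% higher and 4.20% lower). At an unadjusted p under 0.05 there was 1, Ms4a4b, against 26.1% of all genes. In 0 of the 7 did the groups separate completely, against 23.4% of all genes (13.1% with every tumour array higher and 10.4% with every tumour array lower). Of 13 probe sets tested singly 0 were called, against 6.51% of all probe sets tested, and 3 had an unadjusted p under 0.05, against 23.0%. In so small a group a count of 0 is near the background share and is not a result about the family. The median log2 change was 0.10 over the 7 genes and 0.04 over all genes tested, and the median size of the change without its sign was 0.11 and 0.40. The genes behind these medians were not matched for signal, so the medians do not show the 7 to be steadier than other genes. All 7 passed the filter on low values, 6 far above it and Ms4a4d just above it.

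**Figure D1:**
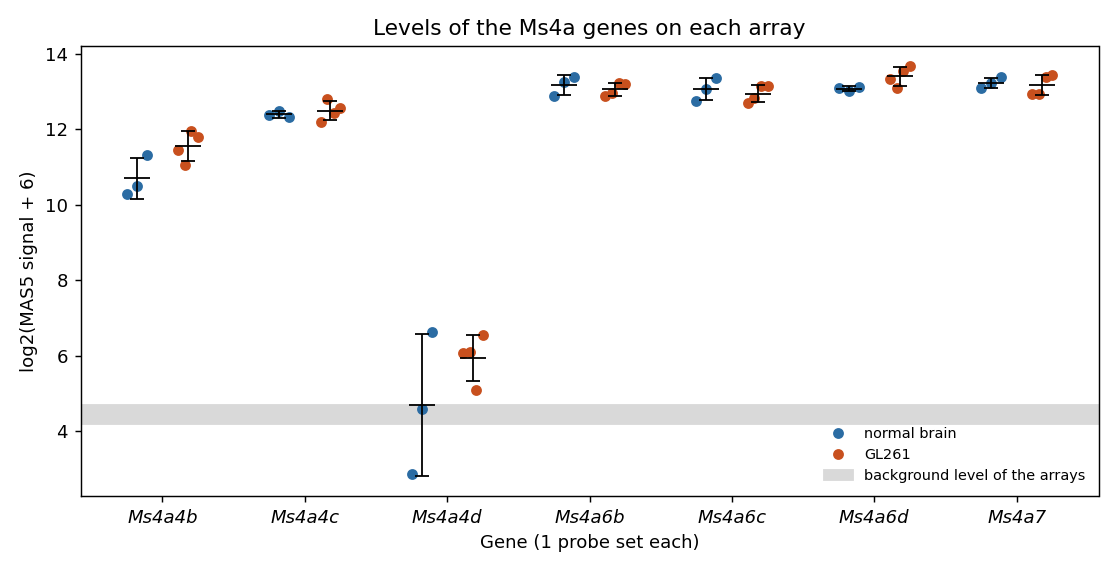
Points show log2(MAS5 signal + 6) of each Ms4a gene on each array, 3 of normal brain and 4 of GL261, and bars show mean ± SD. The grey band is the background level of the arrays (log2 4.19 to 4.70); 6 genes lie far above it with overlapping groups, and Ms4a4d reaches down into it.

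The macrophage genes Ms4a6b, Ms4a6c and Ms4a7 had strong signals in both groups. Ms4a6b had signals of 7508, 9765 and 10790 in normal brain and 7519, 8011, 9529 and 9455 in GL261. All 4 tumour values lay between the lowest and the highest normal value. On the log2 scale Ms4a6b was at 13.18 ± 0.27 (SD, n = 3) and 13.07 ± 0.17 (SD, n = 4), a difference of -0.11 with a 95% confidence interval of -0.46 to 0.25 (limma adjusted p = 0.718). Its second probe set, 1439956_at, was at 1900 to 2377 in normal brain and 1850 to 2549 in GL261, a difference of 0.02. Both probe sets thus gave overlapping groups.

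Ms4a6c, the neighbour of Ms4a6b, had signals of 6920, 8657 and 10495 in normal brain and 6612, 7281, 9012 and 9041 in GL261. Only GL261 replicate 1 lay below the normal range, and none lay above it. The difference was -0.11 (95% confidence interval -0.50 to 0.27, limma adjusted p = 0.725). Its second probe set, 1457725_at, spread more widely in the tumours, from 219 in replicate 1 to 1109 in replicate 3, around normal values of 455, 624 and 526. The difference there was -0.32, with an interval of -1.33 to 0.68.

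Ms4a7 had signals of 8811, 9529 and 10637 in normal brain and 7854, 7863, 10693 and 11011 in GL261. The tumour arrays were split, with replicates 1 and 2 below and replicates 3 and 4 above all normal arrays. The difference was -0.06 (95% confidence interval -0.42 to 0.30, limma adjusted p = 0.857). The second Ms4a7 probe set, 1445365_at, ran from 71.0 to 440 over all arrays, and its difference of -0.41 had an interval of -1.75 to 0.92. As folds, the intervals of Ms4a6b, Ms4a6c and Ms4a7 in their stronger probe sets reached from 0.725 to 1.19, from 0.706 to 1.21 and from 0.745 to 1.23. Changes larger than these fall outside the intervals, which cover only the spread between arrays.

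The lists of genes that mark border-associated macrophages, microglia and recruited macrophages did not all move one way. Of 11 border-associated macrophage genes tested, 8 fell and 1 rose (median log2 change -1.02). Igfbp4 fell by 1.79 (limma adjusted p = 0.00274) and the scavenger receptor Stab1 fell by 0.88 (limma adjusted p = 0.00378), while the lectin Clec4n rose by 1.14 (limma adjusted p = 0.00371). Their summed signal was 39297 to 46305 in normal brain and 26490 to 30927 in GL261, and none of the 11 was at background on every array. The count of lower border-associated genes was 4 when normal brain 2, GL261 1 or GL261 3 was left out, and 5 when normal brain 1 or GL261 4 was. Of 10 homeostatic microglia genes tested, 7 fell and 0 rose (median -0.68), with summed signals of 52851 to 62882 and 31847 to 38422. Gpr34 fell by 1.82 (limma adjusted p = 0.000240), and 4 genes of the list were lower without normal brain replicate 3 or GL261 replicate 4. Of 11 monocyte and recruited macrophage genes tested, 5 rose and 1 fell (median 0.52). Among them the coagulation factor F10 rose by 2.41 (limma adjusted p = 0.000351) and the chitinase-like gene Chil3 rose by 1.13 (limma adjusted p = 0.00382), while the chemokine receptor Ccr2 fell by 0.63 (limma adjusted p = 0.0299). The call of Ccr2 was lost without normal brain replicate 2 or 3 and without GL261 replicate 1, 3 or 4. It was also lost with median centring, without a variance trend, with array weights and with the mean of probe sets. In such bulk preparations fewer cells of a type and less RNA per cell cannot be told apart, and how these lists bear on Ms4a7 was not tested.

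**Figure D2:**
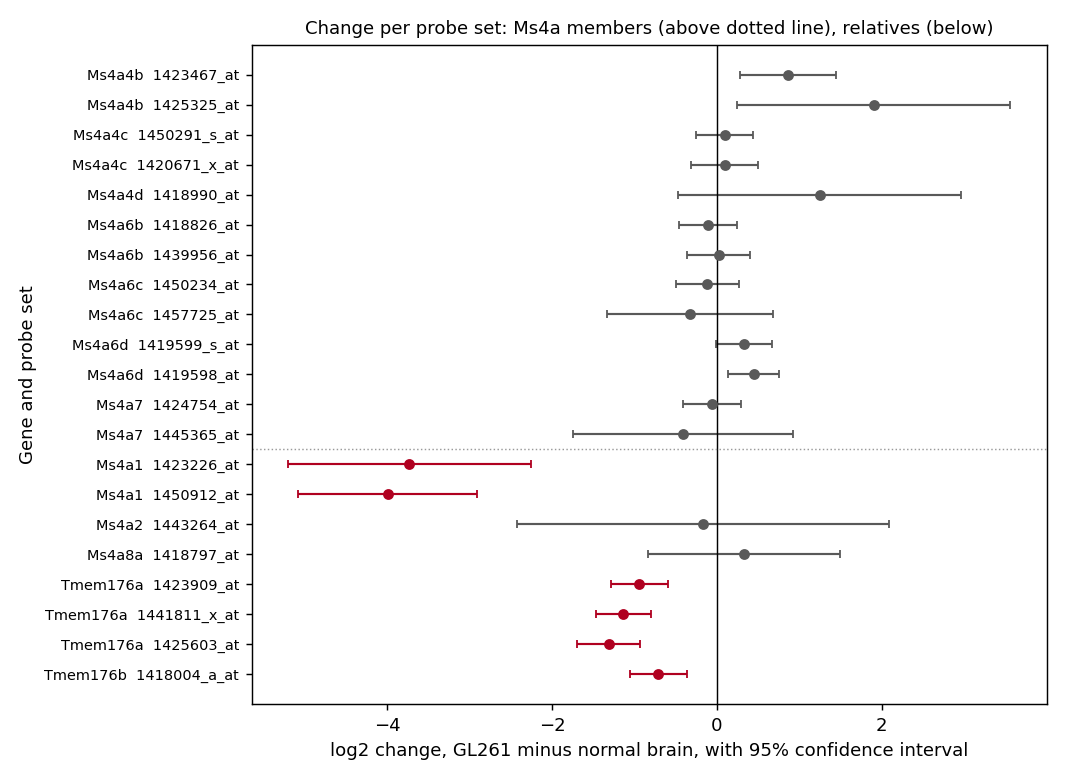
Points show the log2 change (GL261 minus normal brain) of each tested probe set with its 95% confidence interval from the limma fit over 22632 probe sets; red marks an adjusted p under 0.05. The 13 tested probe sets of the Ms4a members lie above the dotted line and hold 0 calls, and those of Ms4a1, Tmem176a and Tmem176b below it were all called lower.

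The protein of Ms4a6d is known to form a surface complex with the macrophage receptor VSIG4. In the stronger probe sets, Ms4a6d had the largest difference among the Ms4a6 genes and Ms4a7. In probe set 1419599_s_at the signals were 8856, 8240 and 8897 in normal brain and 10330, 8712, 11953 and 13056 in GL261. Replicates 1, 3 and 4 of GL261 lay above all normal arrays, and replicate 2 lay among them. The difference was 0.33, with a 95% confidence interval of -0.02 to 0.68 (limma adjusted p = 0.214). The second probe set, 1419598_at, gave 4748, 5292 and 5398 in normal brain and 7112, 5958, 7267 and 7889 in GL261. Here every tumour array lay above every normal array, the only separation among the 13 tested probe sets of the family, against 21.0% of all 22632 probe sets tested. Its difference was 0.45 (95% confidence interval 0.14 to 0.76), with a limma adjusted p of 0.0817 over all probe sets. The third probe set, 1449539_at, was at 2.05 or less on all 7 arrays, below background, and did not pass the filter. Probe sets with the suffix _s_at hold probes shared by several transcripts, and related genes may add to their signal. Ms4a6d was called in 2 of 20 alternative settings, with quantile normalization (0.51, limma adjusted p = 0.00727) and with the hybridisation control level as a covariate (0.42, limma adjusted p = 0.0410), and over all 20 its adjusted p was 0.00727 to 0.598.

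The Ms4a4 genes differed among themselves. Ms4a4b, a gene of T and NK cells, had signals of 1248, 1449 and 2539 in normal brain and 2788, 2126, 3978 and 3563 in GL261. Normal brain replicate 3 lay above GL261 replicate 2, and the other arrays were separated by group. The log2 level was 10.70 ± 0.54 (SD, n = 3) in the former and 11.57 ± 0.40 (SD, n = 4), a difference of 0.86 (SE 0.27, 95% confidence interval 0.28 to 1.44) that missed the threshold (limma adjusted p = 0.0598). It was past the threshold in 7 of 20 alternative settings, including when normal brain 3 was left out (1.17, limma adjusted p = 0.0163), when GL261 2 was left out (1.03, limma adjusted p = 0.0339), and with the hybridisation control covariate (1.13, adjusted p = 0.00220). Over all 20 the value was 0.66 to 1.38 and the adjusted p 0.00220 to 0.171. The 1.38 came from the mean of probe sets, which takes in the weak probe set described next. The 0.00220 came from the covariate, which was added after seeing the data. A second probe set, 1425325_at, was near background, at 74.0, 2.80 and 3.49 in normal brain and 47.1, 92.4, 89.1 and 43.2 in GL261. It was above background on 1 of 3 normal arrays and on 4 of 4 tumour arrays (difference 1.90, limma adjusted p = 0.158 over all probe sets).

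Beside Ms4a4b, which was not called, stood genes of T and NK cells. Of 17 tested, 6 rose and 0 fell (median 0.84), while the other 11 were not called, with differences of -0.57 to 1.74. The summed signal of the list was 9549 to 11070 in normal brain and 12973 to 23074 in GL261. None of its tested genes was at background on every array. Cd8a, the CD8 chain of cytotoxic T cells, rose by 3.03 (limma adjusted p = 0.00317) and the granzyme Gzmb rose by 1.69 (limma adjusted p = 0.00581). The number that rose was 2 without GL261 replicate 3 and 1 without GL261 replicate 4. Array by array the match was partial. GL261 replicate 2 had the lowest tumour level of both Ms4a4b and the T and NK cell genes (-0.14 and -0.18, relative to the mean of the 7 arrays), and replicates 3 and 4 had the highest. Normal brain replicate 3, however, had the highest normal level of Ms4a4b (0.12) and the lowest level of these genes (-0.73). The part of such cells in the Ms4a4b signal was not tested.

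**Figure D3:**
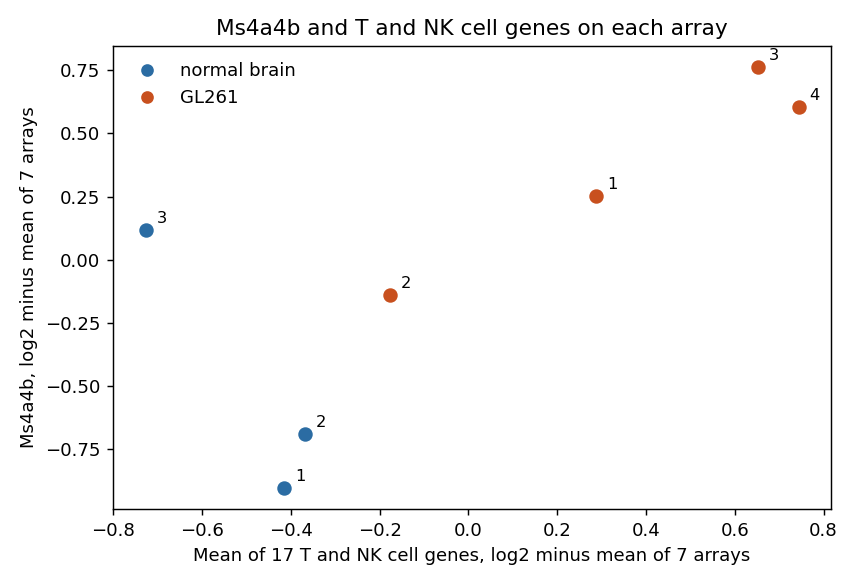
Each point is an array, numbered by replicate, with the mean of 17 T and NK cell genes on the x axis and Ms4a4b on the y axis, both in log2 relative to the mean of the 7 arrays. The tumour arrays lie to the right, and normal brain replicate 3 has a high Ms4a4b value (0.12) at the lowest level of the other genes (-0.73).

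Ms4a4c, the neighbour of Ms4a4b with a related promoter, had signals of 5298, 5794 and 5133 in normal brain and 4684, 7122, 5532 and 6016 in GL261. The tumour values spread around the normal ones, with replicate 1 lowest and replicate 2 highest of all arrays. The difference was 0.10 (95% confidence interval -0.25 to 0.44, limma adjusted p = 0.743), which as a fold is 0.841 to 1.36. Its other probe set, 1420671_x_at, differed by 0.10 as well, with 3158 in GL261 replicate 1 and 5409 in replicate 2. Both carry suffixes for probes that related sequences share. The Ms4a4c signal was also set beside interferon-response genes. Of 22 tested, 15 rose and 0 fell (median 0.94), Gbp2, an interferon-induced GTPase, by 2.43 (limma adjusted p = 8.05e-05) and Ifit2, an antiviral RNA-binding protein, by 1.65 (limma adjusted p = 0.000503). Their mean level was above the mean of the 7 arrays on all 4 tumour arrays (0.30 to 0.45) and below it on all 3 normal arrays. Ms4a4c was on both sides in both groups. How the interferon-response genes bear on the Ms4a4c signal was not tested.

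Ms4a4d was the weak member. Its single probe set gave 1.35, 18 and 93.1 in normal brain and 60.9, 62.0, 28.1 and 86.8 in GL261. It was above background on 2 of 3 normal arrays and on all 4 tumour arrays, and the highest value of all was a normal one. The difference of 1.25 had an interval of -0.46 to 2.95 (limma adjusted p = 0.341), and it was 0.34 when normal brain 1 was left out and 2.21 when normal brain 3 was. A difference of Ms4a4d was not detectable at this signal.

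Over the arrays, the signals of Ms4a6b and Ms4a6c in their stronger probe sets followed each other closely. The log2 value of Ms4a6b minus that of Ms4a6c on the same array, a difference between probe sets with no meaning as a level, averaged 0.11 ± 0.067 (SD, n = 3) over the normal arrays and 0.12 ± 0.055 (SD, n = 4) over the tumour arrays. Likeness was measured as the root mean square difference between log2 values over the 7 arrays, each gene centred on its own mean. By this measure Ms4a6b was the second most alike of 12124 genes to Ms4a6c (0.0511), after Selenot (0.0475), a selenoprotein of the endoplasmic reticulum. Nearest to Ms4a6b were Gyg (0.0323), the primer protein of glycogen synthesis, and the proton pump subunit Atp6v1d (0.0330), with Ms4a6c at rank 4. Nearest to Ms4a7 were the MHC class I gene H2-D1 (0.0348) and the peroxidase Gpx1 (0.0385). None of these genes was called. In their second probe sets Ms4a6b and Ms4a6c did not follow each other over the tumour arrays. On GL261 replicates 1 to 4 that of Ms4a6b gave 2549, 2082, 1850 and 2389, and that of Ms4a6c 219, 329, 1109 and 395. The hybridisation controls were low and high on the same arrays as the stronger probe sets of the 3 Ms4a genes. They were lowest within their group in normal brain replicate 1 and GL261 replicates 1 and 2. The second Ms4a7 probe set was instead highest within its group there, at 440 in normal brain 1 and 354 and 231 in GL261 1 and 2. With the control level as a covariate the differences were 0.019 for Ms4a6b, 0.039 for Ms4a6c and 0.069 for Ms4a7, with the sign turned in each; the part of the controls' variation in these signals was not tested otherwise.

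**Figure D4:**
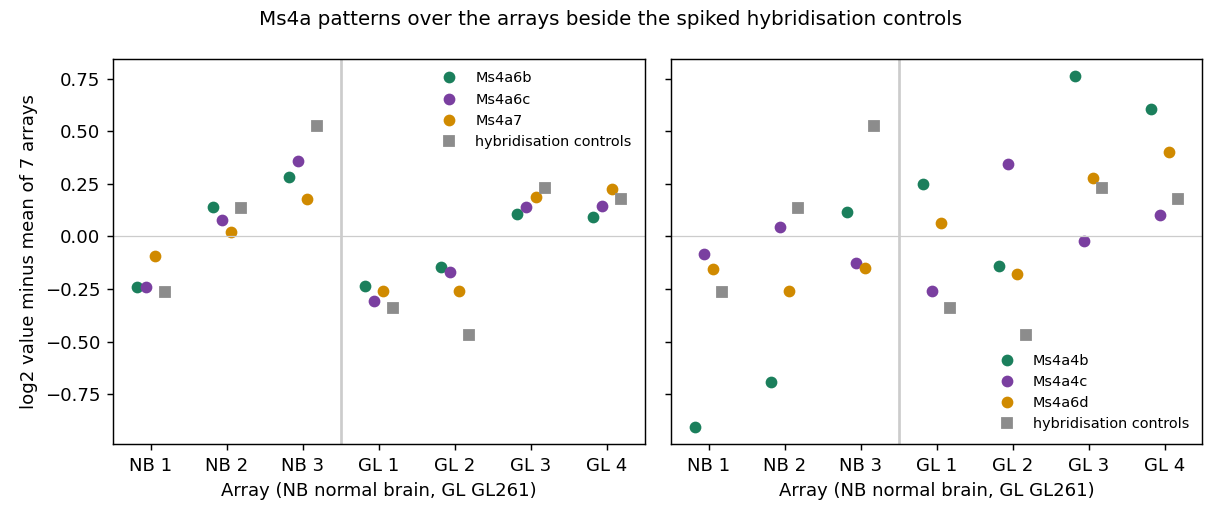
Points show log2 values minus the mean of the 7 arrays for 3 Ms4a genes in each panel (left Ms4a6b, Ms4a6c and Ms4a7, right Ms4a4b, Ms4a4c and Ms4a6d), and grey squares the mean of the 18 hybridisation controls. Each gene is shown by its stronger probe set. On the left these lie together on every array and are low where the controls are low, which the second Ms4a7 probe set (not shown) was not. On the right the 3 genes differ from each other.

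The other members had patterns of their own. Ms4a4c and Ms4a4b, the second pair with related promoters, were not each other's nearest members. The nearest member to Ms4a4c was Ms4a6b (0.256, rank 1215 of 12124) and to Ms4a4b it was Ms4a6d (0.402, rank 468). Nearest to Ms4a4b were the stress gene Ddit4 (0.0942) and Nkg7 (0.131), a granule protein gene of cytotoxic lymphocytes. Nearest to Ms4a4c were the ubiquitin ligase Trim25 (0.0769) and Ckap4 (0.0862). Nearest to Ms4a6d were Xbp1 (0.0719), a transcription factor of the unfolded protein response, and the mitochondrial gene Fundc2 (0.0776). Nearest to Ms4a4d were Sh2d5 (0.294) and Rasgrf1 (0.317); its values also spread most over the arrays.

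Whether members changed unequally was tested for all 21 pairs, as the difference of their log2 values on each array, in which a scaling of the array nearly cancels for bright probe sets but not for the dim one of Ms4a4d. The two-sided exact permutation test over the 35 splits of the arrays cannot go below 0.0286, and 4 pairs reached that value. With Benjamini-Hochberg adjustment over the 21 pairs a pass would need most pairs to be at that smallest value, so that 0 passed says little, with an adjusted p of 0.150 for these 4. Ms4a6d relative to Ms4a7 was at -0.15 ± 0.14 (SD, n = 3) on normal arrays and 0.24 ± 0.11 (SD, n = 4) on tumour arrays, higher on every tumour array than on any normal array. Ms4a4b was likewise higher on every tumour array relative to Ms4a6b, Ms4a6c and Ms4a7, by 0.97, 0.98 and 0.92 on average. These pairs share Ms4a4b, and the other 3 genes had like patterns, so they are not separate observations. The exact permutation p of Ms4a6b against Ms4a6c was 0.914 and that of Ms4a6d against Ms4a4b 0.171.

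Among the related genes outside the 7 some were called. Of 13 other family genes listed, 10 had a probe set, 5 were tested, 0 rose and 3 fell, against 5.92% higher and 4.20% lower over all genes tested. Tmem176a and Tmem176b, MS4A-like membrane proteins of dendritic cells and macrophages, were above background on all 7 arrays. Tmem176a gave 9304, 10833 and 12607 in normal brain and 4574, 6303, 6140 and 5700 in GL261, with all tumour arrays below all normal ones. It fell by 0.94 on the log2 scale (SE 0.16, limma adjusted p = 0.00525), and its other 2 probe sets fell by 1.14 and decreased by 1.31. Tmem176b gave 11160, 13205 and 14922 in normal brain and 6710, 7213, 8998 and 9157 in GL261, and fell by 0.71 (SE 0.17, limma adjusted p = 0.0202). Both lost the call under median centring of the arrays (adjusted p = 0.0598 and 0.194) and in the fit without a variance trend (0.0517 and 0.0963), and Tmem176b also when normal brain 2 (0.0630), normal brain 3 (0.0705) or GL261 1 (0.0556) was left out. Beside them, of 9 dendritic cell genes tested 2 fell (Flt3, a growth factor receptor, by 1.12, and the surface peptidase Dpp4, by 0.87; limma adjusted p = 0.0205 and 0.0224) and 1 rose (the integrin Itgax, by 1.13, limma adjusted p = 0.00146), with a median of -0.63 and summed signals of 20466 to 24398 in normal brain and 14461 to 21762 in GL261. The count that fell was 0 when normal brain 2 or GL261 4 was left out and 1 when normal brain 1, normal brain 3, GL261 1 or GL261 3 was, and the part of such cells was not tested. Ms4a1 was at 1187, 938 and 910 in normal brain and 106, 269, 26.9 and 26.9 in GL261. It fell by 3.73 (limma adjusted p = 0.00716), beside falls of 5 of 6 tested B cell genes, a list that holds Ms4a1 itself. Ms4a2, the beta chain of the IgE receptor of mast cells, and Ms4a8a were not called (-0.17 and 0.33, limma adjusted p = 0.941 and 0.739). Of 7 mast cell and basophil genes tested, Ms4a2 among them, 0 were called by limma and 4 had an unadjusted p under 0.05 (median -1.90). Their summed signals were 1647 to 2734 in normal brain and 996 to 2175 in GL261. The brightest of them was Hdc, at log2 10.54 in normal brain and 10.30 in GL261. The count called lower was 1 when normal brain 2 or normal brain 3 was left out.

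Genes whose proteins are reported to work with MS4A proteins did not pass the test as reported here. Of 8 listed, 6 were tested, with 0 higher and 0 lower at an adjusted p under 0.05 by limma, 2 at an unadjusted p under 0.05 and a median of -0.24. Over all genes 10.1% were called and 26.1% had an unadjusted p under 0.05, so these counts are near the background. Clec7a (Dectin-1), a receptor for fungal glucans that acts with MS4A4A in macrophages, had signals of 6596, 6205 and 7265 in normal brain and 8362, 7438, 11037 and 11148 in GL261. Every tumour array was above every normal one, and the difference was 0.49 (95% confidence interval 0.12 to 0.86, limma adjusted p = 0.0921). It was called in 3 of 20 alternatives, with GL261 2 left out (0.60, limma adjusted p = 0.0486), with quantile normalization (0.62, limma adjusted p = 0.000742) and with the control covariate (0.61, limma adjusted p = 0.00791). Trem2, a lipid receptor of microglia and macrophages, moved the other way, with 5543, 5430 and 6455 in normal brain and 3972, 4183, 4569 and 4653 in GL261. Its difference was -0.42 (95% confidence interval -0.72 to -0.12, limma adjusted p = 0.0746), again with no overlap and not called. It was called in 1 of 20 alternatives, quantile normalization (-0.37, limma adjusted p = 0.0237). Its sign turned in another, the mean of probe sets (0.012), which takes in a second probe set that was below background on every array. Its adapter Tyrobp was at -0.27 (limma adjusted p = 0.444), Fcer1g, the shared Fc receptor chain, at -0.23 (0.523), the kinase Syk at 0.17 (0.567) and Tnfrsf18 (GITR), a partner of Ms4a4b on T cells, at -0.25 (0.656). Vsig4, the partner of Ms4a6d, did not pass the filter, with signals of 1.64 to 13.3 in normal brain and 1.44 to 16.1 in GL261, and was above background on 1 of the 7 arrays.

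**Figure D5:**
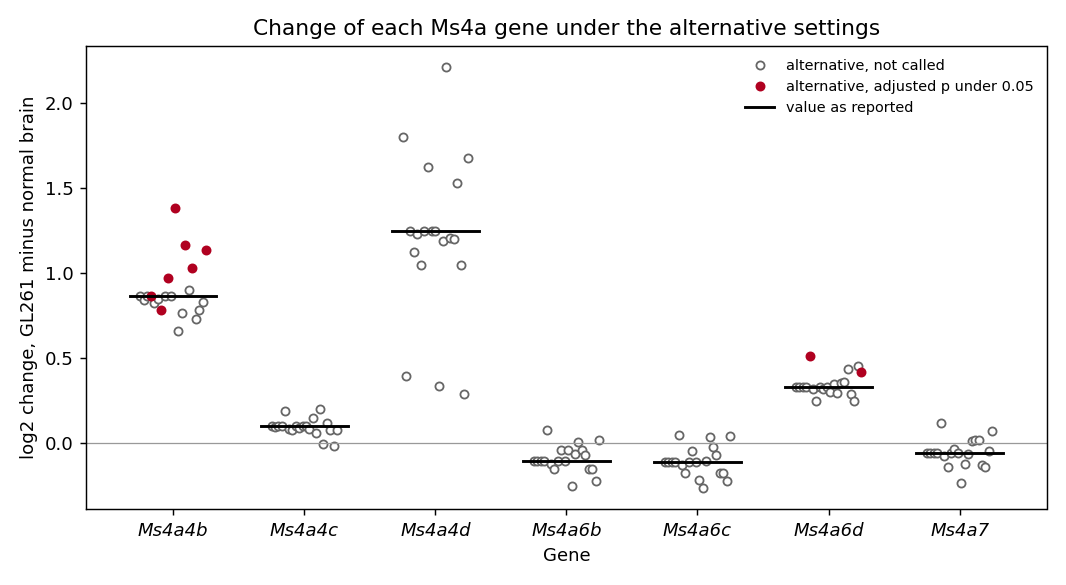
For each Ms4a gene the line is the log2 change as reported and the points are its values under the 20 alternative settings (19 for Ms4a4d, which a stricter filter left out), in red where the adjusted p was under 0.05. Red points occur for Ms4a4b (7) and Ms4a6d (2), and the values of Ms4a4c, Ms4a6b, Ms4a6c and Ms4a7 lie between -0.27 and 0.20.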

How the data were processed

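Total RNA of macrophages sorted from 3 normal brain and 4 GL261 preparations was labelled with biotin and read on Affymetrix arrays. The deposited values are MAS5 signals, a linear intensity per probe set, made by the authors with MAS5 per the submitters' processing notes. Its version and the genome build are not named in those notes or the labels. The mean without the lowest and highest 2% was 500 on every array, so no further scaling was applied; 0 columns belonged to no sample. The number of arrays limits the precision.

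Of 45101 probe sets 64 were controls, 34945 had 1 gene symbol, 932 several and 9160 none; 24 of 24 symbols of the family and its partners matched RefSeq by gene ID. For each of 18193 genes the probe set highest in mean log2(signal + 6) was used, where 6 is the rounded 20th percentile of all values, and tested where that mean exceeded 4.93, the 40th percentile over probe sets, which left 12125. Groups were compared with limma 3.58.1 in R 4.3.3, with a variance trend, two-sided, with Benjamini-Hochberg adjustment over all genes. Every probe set was also tested by itself (22632). Promoters were aligned in Biopython 1.88, and figures drawn with matplotlib 3.10.9. The procedure was tested on simulated data.

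Named were all members and their probe sets, the other family and partner genes, from the marker lists described up to 2 called genes with the smallest p in the main direction and 1 in the other, Adgre1, and the 2 genes most alike to each member. The members and lists were chosen with earlier results of these data known. Same-numbered arrays of the groups did not deviate together (correlations 0.0792, -0.00754 and 0.0310), so they were not paired. The alternatives were the pseudocount (1, 58), the filter (none, 60th percentile), quantile normalization, median centring, replicate block, variance model, array weights, probe set choice and leaving out arrays; the control covariate and the background level were added after seeing the data.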

Additional observations from a re-analysis of the deposited data

Results flagged for a closer look

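Of 31 probe sets of the members, their relatives and partners, 1 had a GL261 array far from the other 3. Syk was at log2 11.41 in GL261 replicate 2, against 11.08 to 11.13 in the other GL261 arrays. Chance gives such a distance in about 1 of 20 groups.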

How the results depend on the processing

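With the settings of the report 0 members were called higher and 0 lower, and 0 were called lower in any alternative. Called higher was 1 under each of a stricter filter (60th percentile), quantile normalization, the replicate block, array weights and the mean of probe sets, 0 to 1 without 1 array (1 without normal brain replicate 3 or GL261 replicate 2), and 2 with the control covariate. Of member probe sets, 2 were called with quantile normalization, 1 with the replicate block and 0 to 1 without 1 array. The replicate block called Ms4a4b (0.78, limma adjusted p = 0.0338), although the numbers do not pair the arrays: normal brain 1, 2 and 3 were closest to GL261 1, 3 and 4. Only GL261 has a replicate 4, so the block fit takes no difference from that array. Leaving out GL261 4 gave the same Ms4a4b value without a call (0.78, limma adjusted p = 0.138). The replicate block also called Tyrobp (-0.38, limma adjusted p = 0.0383). The test of the 21 pairs is too small to show stability.

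Signs of uncalled genes were not settled, and the cause was not tested. Quantile normalization turned Ms4a6b (0.072), Ms4a6c (0.044), Ms4a7 (0.11), Tyrobp (0.013) and Fcer1g (0.068). The control covariate turned Ms4a6b (0.019), Ms4a6c (0.039), Ms4a7 (0.069), Ms4a2 (0.30) and Ms4a8a (-0.023), and the mean of probe sets turned Trem2 (0.012) and Syk (-0.033). For Trem2 that mean takes in a second probe set, 1421226_at, which was below background on every array. Without 1 array Ms4a4c ranged from -0.0051 to 0.20, Ms4a6b from -0.26 to 0.0034, Ms4a6c from -0.27 to 0.032, Ms4a7 from -0.15 to 0.017 and Ms4a2 from -1.38 to 0.53. Without both normal brain 1 and GL261 2, Ms4a4c was at -0.019 and Ms4a2 at 0.72.

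Over all genes 1227 were called, 810 with median centring, 455 without the variance trend, and 534, 715 and 723 without GL261 replicates 3, 1 and 4. Median centring and the fit without the trend left 2 and 2 higher T and NK cell genes, 4 and 1 lower microglia genes, 5 and 3 lower border-associated genes and 1 and 1 lower relatives, and the latter 8 higher interferon-response genes. Without the trend 3 neutrophil genes were lower and 2 monocyte and recruited macrophage genes higher. The mean of probe sets left 3 of the latter higher. Of pan-macrophage and leukocyte genes 3 were higher with quantile normalization and 2 with the control covariate. In that list 3 were lower with the replicate block, and 1 each with the mean of probe sets and the control covariate. Dim probe sets such as that of Ms4a4d limit what could be seen.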

Other observations

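The other Ms4a genes that were analysed did not pass the filter on low values. Ms4a3, a gene of granulocyte and monocyte progenitors, was above background on 1 of 3 normal and 3 of 4 tumour arrays, with signals of 2.77 to 19.6 and 12.9 to 19.4. Ms4a15 was above background on 2 of 3 normal and 3 of 4 tumour arrays, and its highest signal, 54.3, was on a normal array. Ms4a10, Ms4a13, Ms4a18 and Ms4a19 were above background on 1 of the 7 arrays each, and Ms4a20 on 0. Ms4a4a, Ms4a5, Ms4a12 and Ms4a14 were not analysed here.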
